A study of Mus musculus with 6 samples.

Results

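Secretory IgA is the main antibody of the gut surface, and the genes described here encode 4 parts of its production by plasma cells and the receptor that carries it across the epithelium. Igha encodes the IgA heavy chain constant region, Igkc the kappa light chain constant region, Jchain the joining chain of polymeric IgA, Mzb1 an endoplasmic reticulum co-chaperone of antibody-secreting cells, and Pigr the polymeric immunoglobulin receptor. The 5 genes were taken by symbol from the 52550 Ensembl identifiers of the series, and all 5 were found.

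RNA was sequenced from colon epithelial cells of male Apc Min/+ mice, which carry a truncating mutation in 1 copy of the tumour suppressor gene Apc and develop intestinal adenomas. The mice were 5 to 6 weeks old. By oral gavage on alternate days they received 20 mg/kg atorvastatin, an inhibitor of cholesterol synthesis (3 libraries), or 2% Tween 80 as vehicle (3 control libraries). The Apc Min/+ genotype is thus shared by both groups, and the labels do not say whether each library came from a separate mouse, so p-values measure the spread between libraries, which may be technical.

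Plasma cells lie in the lamina propria, beneath the epithelium. They assemble heavy and light chains in the endoplasmic reticulum, where Mzb1 works beside the chaperone Hsp90b1, and join IgA monomers through the J chain. Pigr, on the basolateral face of epithelial cells, binds the J chain-containing polymer, carries it through the cell and releases it into the lumen bound to the receptor's cleaved outer part. Pigr transcripts are thus made by the epithelium itself, and immunoglobulin transcripts by cells of the B lineage.

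Levels are FPKM, fragments normalized to gene length and library total. The FPKM totals ran from 407857 to 430832, and 11456 to 11655 genes per library reached 1 FPKM. The epithelial label fitted the markers: Epcam, which encodes an epithelial adhesion molecule, lay between 479 and 565 FPKM, while Ptprc, the pan-leukocyte marker CD45, lay between 0.688 and 1.98 FPKM. Control replicate 3 was the lowest of the controls in Ptprc and in each of the 5 genes. The mitochondrial ribosomal RNA mt-Rnr1, whose level varies with library preparation, was 1828 to 2631 FPKM in the controls against 1160 to 1526 FPKM with atorvastatin; its part in the results below was not tested.

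The 5 genes lie on different chromosomes. In GENCODE M21 on GRCm38, Pigr spans chr1:130826684-130852249 on the plus strand and Jchain chr5:88519809-88527891 on the minus strand. Igkc is 1 exon at chr6:70726435-70726966 on the plus strand, and Igha spans chr12:113254830-113260236 on the minus strand. The stretches upstream of the RefSeq start sites of Pigr and Jchain, 250 bases each from GRCm38.p6, are shown. Promoter sequences were at hand for these 2 of the 5 genes only, the epithelial receptor and the plasma cell chain it binds. Capitals mark matches to the motifs searched.

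Pigr, chr1:130826434-130826683, plus strand: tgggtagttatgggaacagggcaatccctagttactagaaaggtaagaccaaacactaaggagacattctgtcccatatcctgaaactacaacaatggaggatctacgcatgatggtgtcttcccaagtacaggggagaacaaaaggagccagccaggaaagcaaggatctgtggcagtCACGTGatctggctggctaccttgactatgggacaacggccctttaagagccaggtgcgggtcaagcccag
Jchain, chr5:88527898-88528147, minus strand: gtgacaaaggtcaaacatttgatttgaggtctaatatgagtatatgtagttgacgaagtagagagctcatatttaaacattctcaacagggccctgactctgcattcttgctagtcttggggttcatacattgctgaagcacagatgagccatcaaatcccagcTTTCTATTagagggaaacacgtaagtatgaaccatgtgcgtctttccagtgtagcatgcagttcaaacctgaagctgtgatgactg

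In Pigr the capitals are an E-box, CACGTG, at -71 to -66 from the start site, the kind of element that the factors Usf1 and Usf2 bind. An E-box was present in 7.15% of the 32851 promoter windows of 300 bases (250 before to 50 after the start). In Jchain the capitals are a match, on the minus strand at -86 to -79, to AANNGAAA, the core letters bound by interferon regulatory factors. Pigr holds the same core at 8 to 15 after its start, on the minus strand, as do 23.9% of all windows. The octamer ATGCAAAT (1.74% of windows) and the unfolded protein response letters TGACGTGG (0.676%) were searched on both strands and matched in neither window. A match is a description of letters and not a site.

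Atorvastatin libraries held less of the 4 transcripts of antibody production than any control library, while the receptor did not separate the groups. These 4 are called plasma cell transcripts here for what they encode, and none of 16 other plasma cell genes was lower without overlap. Igkc, Igha, Jchain and Mzb1 were each lower in all 3 atorvastatin libraries than in all 3 controls, and Pigr overlapped between the groups. None of the 3 genes high enough for the test over all genes (Igkc, Igha and Pigr) reached an adjusted p under 0.05 with limma, as 0.404% of 11644 tested genes did (0.249% downward and 0.155% upward). Igha was in that test only through its 3 control libraries, since each atorvastatin library was under 1 FPKM. Lower values without overlap were seen in 6.05% of tested genes, and in 5.13% of the 28981 genes above 0 in any library. In these bulk samples, fewer cells of a type in the isolate and less RNA per cell cannot be told apart. How much of other cell types each epithelial isolate carried over was not tested.

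**Figure D1:**
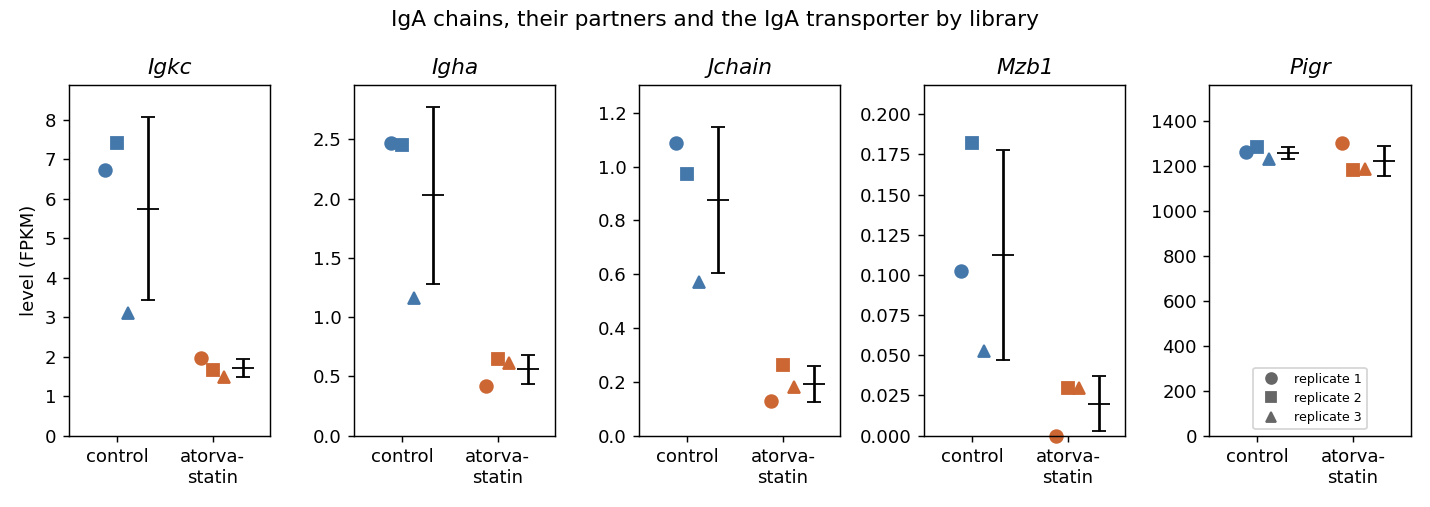
Level in FPKM (linear axes from 0, a different scale in each panel) of the 5 genes in each control and atorvastatin library; symbols are replicates, and the bar is the mean with the SD of 3 libraries. The immunoglobulin genes and Mzb1 lie lower in all 3 atorvastatin libraries, and Pigr stays between 1183 and 1300 FPKM in all 6.

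Igkc, the light chain shared by antibodies of all classes, was the highest of the plasma cell transcripts. It was at 6.74, 7.40 and 3.11 FPKM in control replicates 1, 2 and 3, against 1.96, 1.67 and 1.50 FPKM in the atorvastatin replicates. The groups did not overlap, and control replicate 3 lay nearer to the atorvastatin libraries than to the other controls. The means were 5.75 ± 2.31 and 1.71 ± 0.23 FPKM (SD, n = 3 each), a ratio of control to atorvastatin of 3.37. On the log2(FPKM + 1) scale the difference was -1.26 ± 0.27 (SE; 95% interval -1.89 to -0.62), with a limma adjusted p = 0.139. That p was 0.0046, at a log2 fold change of -1.58, without control replicate 3, and 0.208 to 0.303 with any other library left out. A long non-coding gene, Gm30211, overlaps Igkc on the same strand and was listed at 0 in 3 libraries and was highest in atorvastatin replicate 2, at 0.020 FPKM.

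Igha separated the groups in the same way, at a lower level. Its values were 2.47, 2.45 and 1.17 FPKM in the controls against 0.422, 0.648 and 0.616 FPKM with atorvastatin. Only the 3 control libraries reached 1 FPKM, so Igha passed the filter through the group in which it was higher. Its limma p-values therefore describe the fit and are no support for a difference. Control replicate 3 was again the lowest control, and the gap to the highest atorvastatin library remained. The means were 2.03 ± 0.75 and 0.562 ± 0.123 FPKM (SD, n = 3 each), a ratio of 3.61. The log2 fold change was -0.92 ± 0.19 (SE; 95% interval -1.37 to -0.48), with a limma adjusted p = 0.113. Without control replicate 3 it was -1.15 (limma adjusted p = 0.0175), and with any other library left out the adjusted p was 0.223 to 0.305. With a pseudocount of 0.1 FPKM it was -1.63 (limma adjusted p = 0.0948).

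Igha is annotated with a 3-exon transcript of 1100 bases, which ends after the last constant domain as in secreted IgA, and a 4-exon transcript of 2540 bases that includes a distant last exon, as in the membrane form. All exons together cover 2668 bases, against 532 for Igkc. The length that the deposited values were divided by is not given in the sources used here, so the order of Igkc above Igha holds for these FPKM values and not necessarily for molecules.

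Jchain, whose product links IgA monomers and is the part that Pigr binds, did not reach 1 FPKM in at least 3 libraries and was not part of the test over all genes. It was at 1.09, 0.971 and 0.570 FPKM in the controls against 0.129, 0.262 and 0.182 FPKM with atorvastatin. The lowest control was thus above the highest atorvastatin library. The means were 0.876 ± 0.271 and 0.191 ± 0.067 FPKM (SD, n = 3 each), a ratio of 4.58. The difference was -0.65 on the log2(FPKM + 1) scale, with p = 0.1 in an exact two-sided permutation test, the smallest p that 3 against 3 libraries can give. In a limma fit with no filter its adjusted p was 0.3.

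Mzb1, which helps antibody-secreting cells fold and export immunoglobulin, was close to the lower end of detection. Its gene lies on chromosome 18, 35647267 to 35649367, on the minus strand (GRCm38). It was at 0.103, 0.182 and 0.0528 FPKM in control. With atorvastatin it was listed at 0 in replicate 1 and at 0.0297 and 0.0298 FPKM in replicates 2 and 3. The groups did not overlap, but such values rest on few fragments, and no fold is given against a library at 0. The difference on the log2(FPKM + 1) scale was -0.12 (exact two-sided permutation p = 0.1; limma adjusted p = 0.585 with no filter). A GENCODE gene model named SPATA24 overlaps Mzb1 on the same strand and was not analysed here, so reads of the pair may not be fully told apart.

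The plasma cell transcripts kept their order of levels, Igkc above Igha above Jchain above Mzb1, in all 6 libraries, and in each group the ranges of neighbours in that order did not overlap. Ratios between them overlapped between the groups. The ratio of Igha to Igkc was 0.366, 0.331 and 0.374 in control and 0.216, 0.389 and 0.412 with atorvastatin (exact two-sided permutation p = 1 on the log2 ratio). The ratio of Jchain to Igha was 0.440, 0.396 and 0.490 in control and 0.307, 0.404 and 0.295 with atorvastatin, also overlapping (exact p = 0.2). Atorvastatin replicate 1, with the lowest Igha to Igkc ratio, had the lowest Igha and Jchain and the highest Igkc of its group. With 3 libraries a group, these ratios do not show that the proportions were equal.

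Pigr was among the most abundant transcripts of the isolate. It was at 1263, 1281 and 1229 FPKM in the controls against 1300, 1183 and 1186 FPKM with atorvastatin. The highest and 2 lowest libraries were all atorvastatin libraries, and the groups overlapped. Pigr ranked between 25 and 27 of all identifiers in every library and made up 0.275% to 0.309% of the FPKM total. The means were 1258 ± 26 and 1223 ± 67 FPKM (SD, n = 3 each). The log2 fold change was -0.04 ± 0.06 (SE, limma adjusted p = 0.848), with a 95% interval of -0.18 to 0.10, or 0.88 to 1.07 times the control level. Relative to Epcam, Pigr was 2.24 to 2.30 in control and 2.30 to 2.47 with atorvastatin.

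The level of Pigr relative to Igkc, Igha and Jchain separated the groups. The log2 ratio of Pigr to Igkc, each with 1 FPKM added, was 7.35, 7.25 and 8.22 in control and 8.78, 8.79 and 8.89 with atorvastatin, a difference of 1.21. For Igha it was 8.51, 8.54 and 9.15 against 9.84, 9.49 and 9.52, a difference of 0.88. For Jchain the group means were 9.40 ± 0.19 and 10.01 ± 0.15 (SD, n = 3 each), a difference of 0.60. None of these 3 ratios overlapped between the groups, each with an exact two-sided permutation p = 0.1, which is the smallest possible. The highest Pigr value was only 1.10 times the lowest, so these ratios repeat the separation of each chain and are no further support. The order of the 3 differences depends on the added 1 FPKM. With 0.1 FPKM added they were 1.57 for Igkc, 1.59 for Igha and 1.69 for Jchain. The ratio to Mzb1 overlapped (difference 0.08, exact p = 0.4), on a scale where values near 0 FPKM move little.

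**Figure D2:**
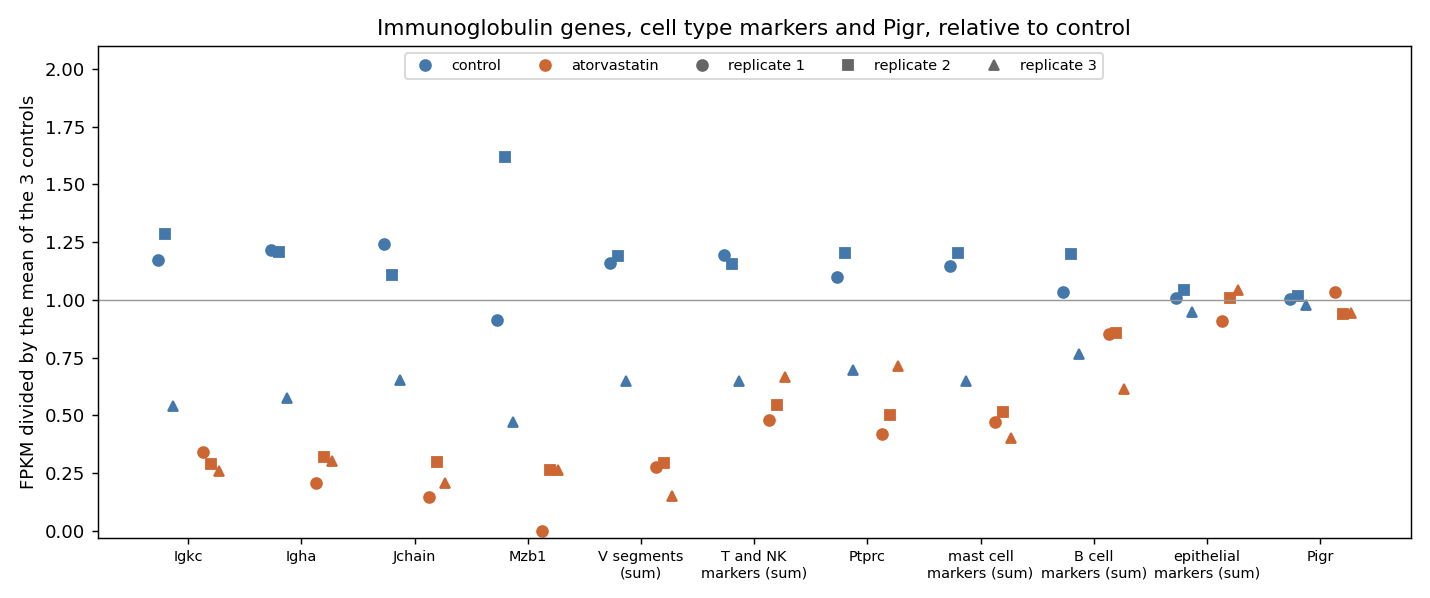
FPKM of each library divided by the mean of the 3 controls (linear axis) for single genes and for summed lists of genes; colours are groups and symbols replicates. Of the items plotted, Igkc, Igha, Jchain, Mzb1 and the summed variable segments sit lowest in the atorvastatin libraries. Ptprc and the summed leukocyte markers lie less low, and the mast cell sum includes Kit, with a log2 fold change of -0.003. The epithelial markers and Pigr lie near 1. Control replicate 3 is the low control in the immunoglobulin and leukocyte items.

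The variable segments, which are joined to the constant regions to form each antibody's binding site, were also lower with atorvastatin as a sum. Of 348 listed Ighv, Igkv and Iglv segments, 120 were above 0 in at least 1 library and none passed the filter. Their summed level was 17.3, 17.8 and 9.70 FPKM in the controls against 4.10, 4.40 and 2.27 FPKM with atorvastatin. The groups did not overlap, and the ratio of the means of control to atorvastatin was 4.16. Heavy chain segments summed to 5.54 ± 1.54 and 1.42 ± 0.69 FPKM and kappa segments to 8.59 ± 3.45 and 1.93 ± 0.35 FPKM (SD, n = 3 each), without overlap in either, whereas the 3 lambda segments overlapped.

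Fewer segments were listed above 0 in the atorvastatin libraries. The number was 62, 64 and 48 in control and 27, 38 and 22 with atorvastatin, again without overlap. Of the 120 segments, 60 were above 0 in controls alone and 13 in atorvastatin libraries alone, and 4 were above 0 in all 6. A lower sum leaves fewer segments above 0, so this number does not measure the diversity of antibodies. Igkv10-96 had the highest mean, a choice made after the values were seen, and took 8.97% of the summed level in controls and 6.55% with atorvastatin. It was at 1.95, 1.36 and 0.719 FPKM in the controls against 0.209, 0.138 and 0.359 FPKM with atorvastatin. Segments resemble each other in sequence, and the value of any single segment is uncertain.

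**Figure D3:**
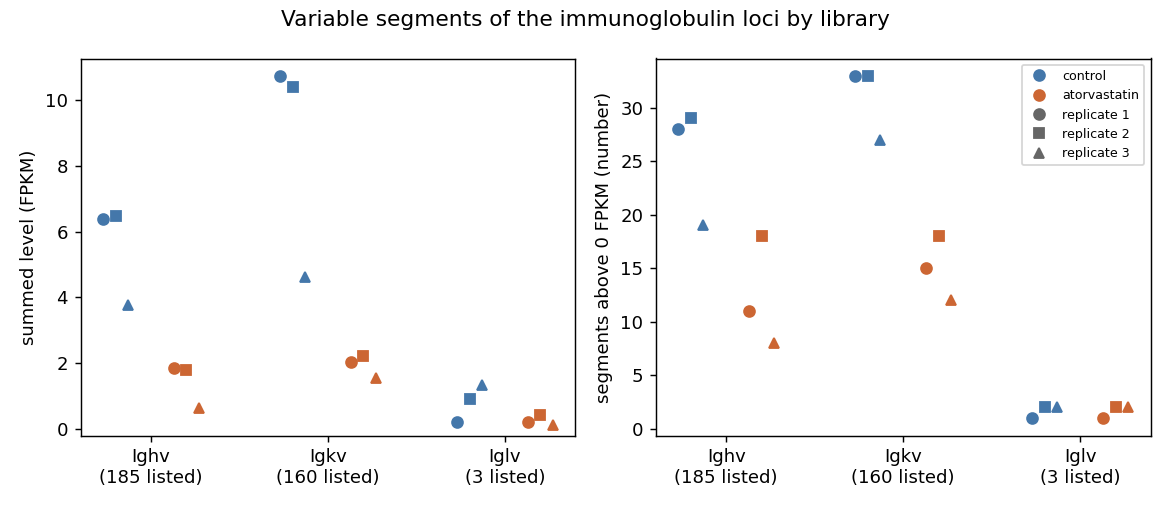
Summed FPKM (left) and number of segments above 0 FPKM (right) of the variable segments of the heavy (Ighv), kappa (Igkv) and lambda (Iglv) loci in each library; colours are groups and symbols replicates. Heavy and kappa segments lie lower in all 3 atorvastatin libraries in both panels.

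None of the 11 other immunoglobulin constant regions passed the filter, and 10 were under 1 FPKM in every library. The exception was Ighm, the IgM heavy chain made by naive B cells and some plasma cells. It was at 1.13, 1.39 and 0.914 FPKM in the controls against 0.893, 0.858 and 0.655 FPKM with atorvastatin. Ighm was thus above Igha in every atorvastatin library. The gap between its groups was narrow, and the ratio of the means, 1.43, was smaller than for Igha. The lambda constant region Iglc1 was at 0.257, 0.331 and 0.342 FPKM in the controls against 0.0898, 0.0889 and 0 FPKM with atorvastatin. Ighg2c, an IgG heavy chain, was no higher than 0.130 FPKM, and Ighe and Iglc4 were listed at 0 in every library. Lower values without overlap were seen for 3 of the 11, Ighm, Iglc1 and Ighg2c, and in 4.52% of all genes above 0 in some library with a mean under 1 FPKM.

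B cell and plasma cell identity genes were too low to be tested or are shared with the epithelium. All 13 B cell markers were under 1 FPKM in every library. Cd79a, part of the B cell receptor, was at 0.128 to 0.212 FPKM in the controls against 0.105 to 0.375 FPKM with atorvastatin, and Ms4a1, which encodes CD20, was at 0.0141 to 0.0709 and 0.0551 to 0.0697 FPKM. The list went both ways, with 2 of the 13 lower and 2 higher without overlap. Control and atorvastatin means were 0.470 and 0.250 FPKM for Cd72 and 0.797 and 0.452 FPKM for Spib. They were 0.0171 and 0.0316 FPKM for Pax5 and 0 and 0.0144 FPKM for Cr2. Lower values without overlap were seen in 4.52% of genes with a mean under 1 FPKM. Higher values without overlap were seen in 12% of tested genes, and their share among such low genes was not computed. The summed B cell markers overlapped between groups, at 1.35 to 2.11 and 1.08 to 1.51 FPKM. Tnfrsf17, the survival receptor of mature plasma cells, was listed at 0 in all 6 libraries.

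Of 16 plasma cell genes, 7 were tested, with a median log2 fold change of -0.03 beside 0.02 over all tested genes, and none passed. None of the 16 was lower without overlap (5.13% of genes above 0 in a library), and 1, Txndc5, was higher (12% of tested genes). Another 9 were under 1 FPKM in every library. Among these, control and atorvastatin means were 0.319 and 0.203 FPKM for Irf4, 0.488 and 0.338 FPKM for Prdm1, and 0.0510 and 0.0930 FPKM for Pou2af1, each overlapping. Most of the abundant ones are also used by secretory epithelium. Xbp1, a factor of secretory cells, was at 52.3 ± 4.8 and 50.8 ± 1.8 FPKM, and Sdc1, which encodes syndecan-1, at 49.0 ± 2.6 and 44.7 ± 3.9 FPKM (SD, n = 3 each). Txndc5, a disulfide isomerase of the endoplasmic reticulum, was at 22.3, 20.3 and 22.2 FPKM in the controls against 24.4, 55.3 and 42.7 FPKM with atorvastatin. Its groups did not overlap and its values lay in the opposite direction to the immunoglobulin genes (log2 fold change 0.81, limma adjusted p = 0.319). Fkbp11, a prolyl isomerase of secretory cells, differed by 0.53 on the log2 scale (limma adjusted p = 0.398), and Creld2, a stress-induced protein of the same compartment, by -0.28 (limma adjusted p = 0.379).

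Summed markers of macrophages and of mast cells were lower without overlap in the atorvastatin libraries, while those of T and NK cells, neutrophils and B cells overlapped between the groups. The 18 T and NK cell markers summed to 22.4 to 41.4 FPKM in the controls against 16.6 to 23.1 FPKM with atorvastatin, overlapping through control replicate 3. All 9 tested had negative log2 fold changes (median -0.44), and none passed. The 13 macrophage and dendritic cell markers summed to 5.10 to 10.6 and 3.91 to 4.97 FPKM, and the 11 mast cell markers to 14.1 to 26.1 and 8.75 to 11.1 FPKM, neither overlapping. None of the 3 tested mast cell genes passed: the log2 fold change was -1.92 for the protease gene Mcpt1, -1.58 for Mcpt2 and -0.003 for Kit, the receptor for stem cell factor. Kit, at 6.20 to 7.90 FPKM with atorvastatin, made up most of the mast cell sum in those libraries. The mean with atorvastatin was 0.160 of control for Mcpt1 and 0.150 for Mcpt2, below 0.296 for Igkc and 0.277 for Igha. For Cma1 and Tpsb2 it was 0.803 and 0.854, and for Kit 1.00. Mcpt2, like Igha, reached 1 FPKM in the controls alone. Among macrophage genes Mrc1 had the opposite order, at 0.116 to 0.251 FPKM in the controls against 0.253 to 0.369 FPKM with atorvastatin. The 9 neutrophil markers summed to 19.5 to 40.5 and 16.4 to 24.0 FPKM. Nearly all of that sum was 1 gene, Ly6g, at 19.1 to 39.9 FPKM in the controls and 16.3 to 23.9 FPKM with atorvastatin. The other 8 were under 1 FPKM in every library. Of the neutrophil markers Elane, Ngp and Camp were at 0 in every library, and among the 11 stromal and endothelial markers, which summed to at most 1.22 FPKM, Kdr was at 0. All 12 epithelial markers were tested, with a median log2 fold change of -0.06 and none called. The part of the leukocyte content in the difference of the immunoglobulin genes was not tested.

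Igha and Igkc were also divided by the summed T and NK markers and by Ptprc, but not by markers of other leukocytes. These ratios describe the libraries, and the part of leukocyte content in them was not tested. The ratio of Igha to the summed T and NK markers was 0.0596, 0.0611 and 0.0519 in control and 0.0254, 0.0344 and 0.0266 with atorvastatin. Control replicate 3 stood near the other controls in this ratio. For Igkc the ratio was 0.163, 0.185 and 0.139 against 0.118, 0.0885 and 0.0646. Neither ratio overlapped between the groups (exact two-sided permutation p = 0.1 for each, the smallest possible). Relative to Ptprc, Igha did not overlap, at 1.02 to 1.36 and 0.524 to 0.787 (exact p = 0.1), but Igkc did, at 2.72 to 3.74 and 1.27 to 2.84 (exact p = 0.2).

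Pathways that raise Pigr in epithelium include interferon gamma through Irf1, interleukin 17 through Il17ra and Traf3ip2, interleukin 4 through Stat6, and Toll-like receptors and TNF through NF-kB. All 20 genes reported here from this list were tested with limma, with a median log2 fold change of -0.04, and none of these 20 was called. Irf1, an interferon-induced factor that acts on the Pigr gene, was at 31.5, 33.9 and 37.8 FPKM in the controls against 31.4, 30.2 and 30.3 FPKM with atorvastatin (log2 fold change -0.16, limma adjusted p = 0.441). The interleukin 4 receptor gene Il4ra had 5.81 ± 0.41 and 4.77 ± 0.34 FPKM (SD, n = 3 each; log2 fold change -0.24, limma adjusted p = 0.248), and Tlr3, a sensor of double-stranded RNA, a difference of -0.21 on that scale (limma adjusted p = 0.366). Il17ra was at 2.18 to 2.50 FPKM in the controls against 2.13 to 2.48 FPKM with atorvastatin. Usf1, of the E-box factors, had a log2 fold change of -0.004 and Usf2 of -0.05.

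The machinery that moves Pigr through the cell had no called gene. Of 17 genes, 15 were tested, with a median log2 fold change of 0.03, and Rab3b and Rab11fip5 were under 1 FPKM in every library. Rab3d, a vesicle GTPase, differed by 0.13 on the log2 scale (limma adjusted p = 0.569), and Rab11a, of apical recycling endosomes, by -0.09 (limma adjusted p = 0.592). The receptor kinase gene Egfr had -0.10 and Exoc4, of the exocyst tether, 0.09. Rab25, an epithelial relative of Rab11a, was at 66.9 to 69.9 FPKM in the controls against 70.2 to 71.9 FPKM with atorvastatin.

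Signals by which epithelium draws and supports IgA plasma cells were largely under the filter, with 3 of 17 genes tested and none called. Ccl28, the epithelial chemokine for IgA plasma cells, was at 27.7, 29.5 and 30.0 FPKM in the controls against 33.3, 33.8 and 31.6 FPKM with atorvastatin. Its groups did not overlap, with higher values under atorvastatin, against 12% of tested genes (log2 fold change 0.17 ± 0.05, limma adjusted p = 0.276). Tnfsf13, which encodes the plasma cell survival factor APRIL, had 12.8 ± 0.7 and 11.7 ± 0.5 FPKM (SD, n = 3 each), and Aldh1a1, an enzyme of retinoic acid synthesis, a log2 fold change of 0.07. Ccr10, the Ccl28 receptor carried by IgA plasma cells, was at 0.467 to 0.704 FPKM over all libraries. Il5 and the vessel address molecule Madcam1 were listed at 0.

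The chaperones that fold antibodies in plasma cells are used by all secretory cells, and all 12 were tested, with a median log2 fold change of -0.09, 10 negative and none called. Hsp90b1, the partner of Mzb1, was at 188 to 202 FPKM in the controls against 171 to 200 FPKM with atorvastatin. Hspa5, which holds unassembled heavy chains, differed by -0.15 on the log2 scale (limma adjusted p = 0.553), Dnajb9 by -0.15 and Dnajb11 by -0.13. Ero1a, an oxidase listed under its older symbol Ero1l, had -0.09, without overlap between groups.

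**Figure D4:**
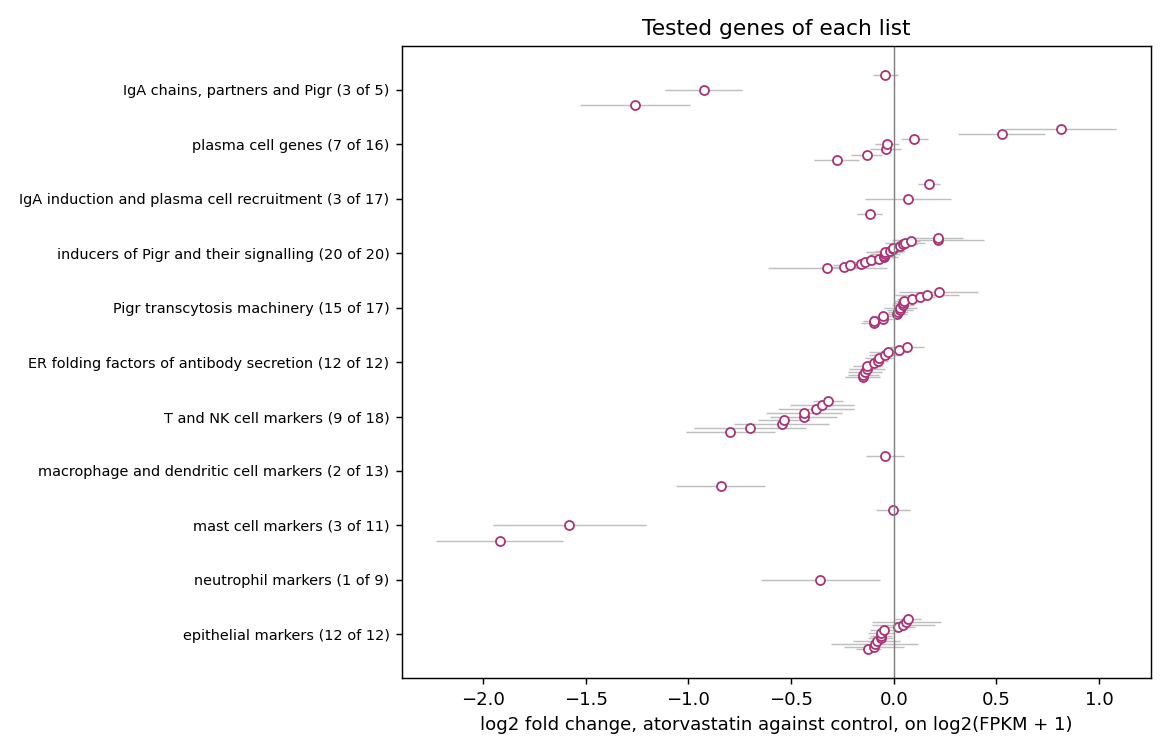
Log2 fold change (atorvastatin against control, on log2(FPKM + 1)) with its SE for the tested genes of each list; labels give the number tested of the number listed, and none of the plotted genes had an adjusted p under 0.05. Igkc and Igha lie to the left, with T and NK cell genes, the mast cell proteases Mcpt1 and Mcpt2, and Lyz2 of the macrophage list. Kit of the mast cell list lies at -0.003, and Cd68 of the macrophage list and Pigr lie at -0.04.

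Genes were ranked by the distance of their centred log2 values from each member over the 6 libraries, among the tested genes averaging 5 FPKM or more (6628 for the chains and 6627 for Pigr). Nearest to Igha were the T cell chemokine gene Ccl5 (root mean square distance 0.154), the class I gene H2-Q6 (0.169), the granzyme gene Gzma (0.179), mt-Rnr1 (0.196) and the immunity-related GTPase gene Irgm2 (0.21). Nearest to Igkc were the interferon-inducible Ifi27l2a (0.164), the class II gene H2-Eb1 (0.203), the predicted gene Gm47283 (0.294), the class II gene H2-Ab1 (0.295) and Ccl5 (0.332). The added 1 FPKM shrinks differences of low genes, so near profiles do not mean equal folds. The ratio of control to atorvastatin means was 3.61 for Igha, against 1.70 (mt-Rnr1) to 1.97 (H2-Q6) for its 5 nearest genes. For Igkc it was 3.37, against 1.87 (Ccl5) to 2.87 (Ifi27l2a). For Pigr the nearest were Chmp2b (0.0136), Ndufa10 (0.0197), Stx7 (0.0203), Uhmk1 (0.0218) and Ergic3 (0.022), and 51.1% of the genes ranked lay within 0.1 of it, since Pigr varied little.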

How the data were processed

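The authors deposited 1 table per library with 1 value per Ensembl gene. The values were read as FPKM from their totals, since no header names the unit, and the authors' normalization was taken to be to gene length and library total. The submitters' processing notes name FastQC 0.11.2, Bowtie and mm10; the quantifier, the gene lengths and handling of shared reads are not given in the sources used here. Sequencing depth is unknown, so no counting interval was computed.

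A gene table gave symbols to 99.72% of identifiers. All 186 entries of the gene lists were matched, 2 of them by a synonym. Genes at 1 FPKM or more in at least 3 libraries were tested with limma 3.58.1 (R 4.3.3) on log2(FPKM + 1), with trended and robust variance, two-sided, and Benjamini-Hochberg adjustment over 11644 genes (47 called, 18 higher and 29 lower with atorvastatin). This scale understates changes of low genes. Single values were compared by exact permutation (scipy 1.17.1). The script was tested on simulated data.

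The members and lists were chosen with earlier results of these data known. Named by rule were the 5 members, up to 4 genes of each list with the smallest p, any called list gene, Ptprc, Epcam, Xbp1, Sdc1, Ighm, Cd79a, Ms4a1, Tnfrsf17, Ccl28 and Irf1, and the 5 genes nearest in profile to each tested member; other genes were named after their values were seen. For lists that only set the background, some of these are not printed. 1 gene of the list of Pigr inducers is not reported here, and the counts, median and plot of that list leave it out. Promoters are from RefSeq (GRCm38.p6), whose table held 2 of the 5 genes. Alternatives changed the pseudocount, filter, scaling, variance model, replicate block and libraries included.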

Additional observations from a re-analysis of the deposited data

How the results depend on the processing

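Igkc, Igha, Jchain and Mzb1 were lower with atorvastatin in every alternative that gave a value (16, 16, 13 and 13), and Pigr had a log2 fold change between -0.09 and -0.02 in all 17, with no call. With 1 library left out, the log2 fold change ran from -1.58 to -1.06 for Igkc and from -1.15 to -0.81 for Igha, and both passed only without control replicate 3. Igha met the filter through the control libraries alone. The size of the difference of the low genes depended on the pseudocount: with 0.1 and 0.5 FPKM it was -1.73 and -0.98 for Jchain, -0.79 and -0.23 for Mzb1, -1.63 and -1.21 for Igha and -1.61 and -1.43 for Igkc. The difference of Pigr against Jchain was then 1.69 and 0.94, against Mzb1 0.75 and 0.19, and with 0.1 FPKM against Igha 1.59. The number of genes called over all tested genes, 47, was 2 with no filter, which tests more genes, and 7 to 72 with 1 library left out (7, 30 and 72 without control replicates 1, 2 and 3, and 13 and 18 without atorvastatin replicates 1 and 3). With the replicate block it was 1, at adjusted p = 0.195 for Igkc and 0.254 for Igha. The shared replicate numbers are not said to pair the libraries. Deviations of same-numbered libraries correlated at -0.139, -0.106 and 0.0136 across genes, and those of other pairs at -0.05 to 0.164. With 3 libraries a group, these correlations cannot decide whether the libraries were paired. A filter of 5 FPKM leaves out Igkc and Igha, and quantile scaling, the variance model and the block were not run for Jchain and Mzb1, which are under the filter. Values under 1 FPKM rest on few fragments.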
